A study of Mus musculus with 50 samples.

Results

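The interferon-induced genes followed here are 44 mouse genes, chosen by name from the genes that interferons switch on and read from 24984 gene rows of each RNA-seq count file, where all 44 were found. They are 4 sensors of RNA and DNA, 5 signal carriers and transcription factors, 6 genes of the OAS family, 4 of the IFIT family, 2 MX GTPases, 7 GBP and IRG GTPases, 2 genes of the ISG15 system, the peptide transporter gene Tap1 and 13 other effectors. The mice were C57BL/6, and neither a transgene nor a deletion is named for any group. The study's methods give the untreated mice as female and do not describe the 3C experiment. Untreated mice were young (2.5 months) or old (23 to 25 months), with 4 RNA-seq libraries for each tissue and age and 3 ATAC-seq libraries, an assay that reads open chromatin. From C57BL/6 mice of 20 to 21 months, labelled DMSO or 3C, came 4 RNA-seq libraries for each treatment of kidney and of liver, and skin fibroblasts of C57BL/6 mice labelled P9 were given DMSO or 3C, with 3 each. What 3C is, its dose and duration, the meaning of P9 and whether each fibroblast library was a separate culture are not given in the sources used here. The labels do not state that the libraries of a group came from separate animals, so the p-values below measure the spread between these libraries.

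Interferons are cytokines, and those of type I are released when a cell detects foreign or misplaced nucleic acid. Type I interferons bind their receptor on neighbouring cells, the receptor's JAK kinases phosphorylate Stat2, and a complex that holds Stat2 and Irf9 binds a promoter sequence called the interferon-stimulated response element (ISRE); type II interferon, Ifng, acts on another, the gamma-activated site (GAS). Many of the induced genes are themselves sensors, signal carriers or transcription factors of the same pathway, and the rest include enzymes and GTPases that block viruses or intracellular bacteria.

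The ISRE was read first in the promoters. RefSeq promoters of 300 bases, from 250 before to 50 after the start site (GRCm38.p6), were held for 33 of the 44 genes. The ISRE core searched was GAAANNGAAA on either strand, and 19 of the 33 genes (57.6%) held it, against 3.99% of the 27025 genes in the promoter table (3.44% of its 32851 promoters). The GAS core, TTCNNNGAA, stood in 10 of 33 (30.3%) against 9.55% of all genes. Both cores stood in 5 of the 33, and they overlapped in 1. The 4 promoters below are those of the called genes with the smallest p for age in kidney whose promoter held an ISRE core. Capitals mark the ISRE core, which reads TTTCNNTTTC where it lies on the other strand, and each sequence runs 5′ to 3′ along the gene.
Oas1a promoter (chr5:120907476-120907775, minus strand): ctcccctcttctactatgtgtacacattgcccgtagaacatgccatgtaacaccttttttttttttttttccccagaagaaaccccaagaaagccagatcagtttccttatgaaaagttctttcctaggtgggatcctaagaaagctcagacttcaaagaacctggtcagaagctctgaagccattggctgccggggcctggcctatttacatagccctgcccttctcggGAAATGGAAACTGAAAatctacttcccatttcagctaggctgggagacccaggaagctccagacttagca
Oas1g promoter (chr5:120887564-120887863, minus strand): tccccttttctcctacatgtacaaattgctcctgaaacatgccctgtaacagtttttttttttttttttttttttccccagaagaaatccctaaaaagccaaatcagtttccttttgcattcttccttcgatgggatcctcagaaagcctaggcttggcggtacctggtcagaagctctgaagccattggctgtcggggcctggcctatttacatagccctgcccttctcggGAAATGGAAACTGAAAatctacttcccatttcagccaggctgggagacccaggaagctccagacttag
Ifit1 promoter (chr19:34640639-34640938, plus strand): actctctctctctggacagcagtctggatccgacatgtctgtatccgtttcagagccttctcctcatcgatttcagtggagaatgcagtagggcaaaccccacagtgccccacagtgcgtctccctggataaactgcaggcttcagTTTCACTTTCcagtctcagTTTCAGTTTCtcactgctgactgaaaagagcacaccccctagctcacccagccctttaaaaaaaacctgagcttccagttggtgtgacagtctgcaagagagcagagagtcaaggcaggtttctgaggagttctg
Bst2 promoter (chr8:71537423-71537722, minus strand): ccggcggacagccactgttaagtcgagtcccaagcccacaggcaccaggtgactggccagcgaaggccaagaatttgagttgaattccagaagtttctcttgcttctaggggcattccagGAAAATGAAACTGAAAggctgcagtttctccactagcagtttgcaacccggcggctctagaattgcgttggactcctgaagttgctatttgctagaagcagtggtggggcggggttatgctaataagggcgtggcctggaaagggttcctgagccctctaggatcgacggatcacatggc
In Oas1a, Oas1g and Bst2 a pair of cores overlapped within one run of GAAA repeats, 20 and 14 bases before the start in Oas1a, 18 and 12 in Oas1g and 130 and 124 in Bst2. The 26 bases around the first core were identical in Oas1a and Oas1g. Ifit1 carried its cores 104 and 85 bases before the start, apart from each other and on the other strand. Shorter stretches, 26 bases with 1 core in capitals, show the same letters at 4 other genes of the list that were called with 3C in fibroblasts.
Isg15, 72 bases before the start: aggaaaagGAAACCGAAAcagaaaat
Gbp3, 45 bases before the start: ggacacagTTTCAGTTTCtatttccc
Gbp7, 53 bases before the start: gtgtgcagTTTCAGTTTCagttctcc
Stat2, 222 bases before the start: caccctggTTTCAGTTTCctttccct
Isg15 held 3 such cores, 78, 72 and 66 bases before the start. Among genes with a promoter in the table, a core stood in 6 of the 12 called higher with age in kidney and in 13 of the other 21. For 3C in fibroblasts it stood in 13 of 19 called genes and in 4 of 12 others.

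Each gene's level is given in CPM, its counts per 1000000 reads counted to genes in that library. RNA libraries held 14.24 to 43.7 × 1000000 counted reads. A gene was called higher or lower where edgeR's quasi-likelihood test gave a Benjamini-Hochberg adjusted p under 0.05 over all genes tested and the fold change passed 2 or 0.5. Differences (log2, with the standard error, SE) come from that fit, which corrects for composition by TMM scaling. Untreated libraries were never set against DMSO or 3C libraries, since the untreated count files list unaligned and multiply aligned reads and the others list none, so their reads were handled differently before counting. The labelled tissues and cells held their markers: 5 kidney markers summed to at least 11236 CPM in kidney and at most 13.8 CPM in liver, 5 liver markers to at least 62802 CPM in liver, and 5 fibroblast markers to at least 12907 CPM in the fibroblasts. One library stood apart, since liver markers summed to 3527 CPM in old kidney replicate 2 and to 132 CPM or less in the other old kidneys. Without it, 19 of the 44 genes were called higher with age in kidney, the same number as with it.

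Compared per kilobase of exon, the highest of the genes in untreated kidney and in fibroblasts was Ifi27, with a mean of 59.5 CPM per kb in young kidney, 148 in old kidney, 301 in DMSO fibroblasts and 361 in 3C fibroblasts. In liver it was Bst2, at 262 CPM per kb in young and 270 in old mice. Oas3 and Mx1 were among the 3 lowest in each untreated group, at 0.0550 and 0.0993 CPM per kb in young kidney. By group mean in CPM, 23 genes were highest in old liver, 14 in old kidney, 4 in young liver and 3 in young kidney among the untreated groups, and 17 were highest in 3C fibroblasts among the treated ones. The mean of log2(CPM + 1) over the 44 genes was 3.37 to 3.65 in young kidney and 3.90 to 4.80 in old kidney, which did not overlap. In liver the ranges overlapped, 3.86 to 4.44 in young and 4.35 to 4.84 in old mice.

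**Figure D1:**
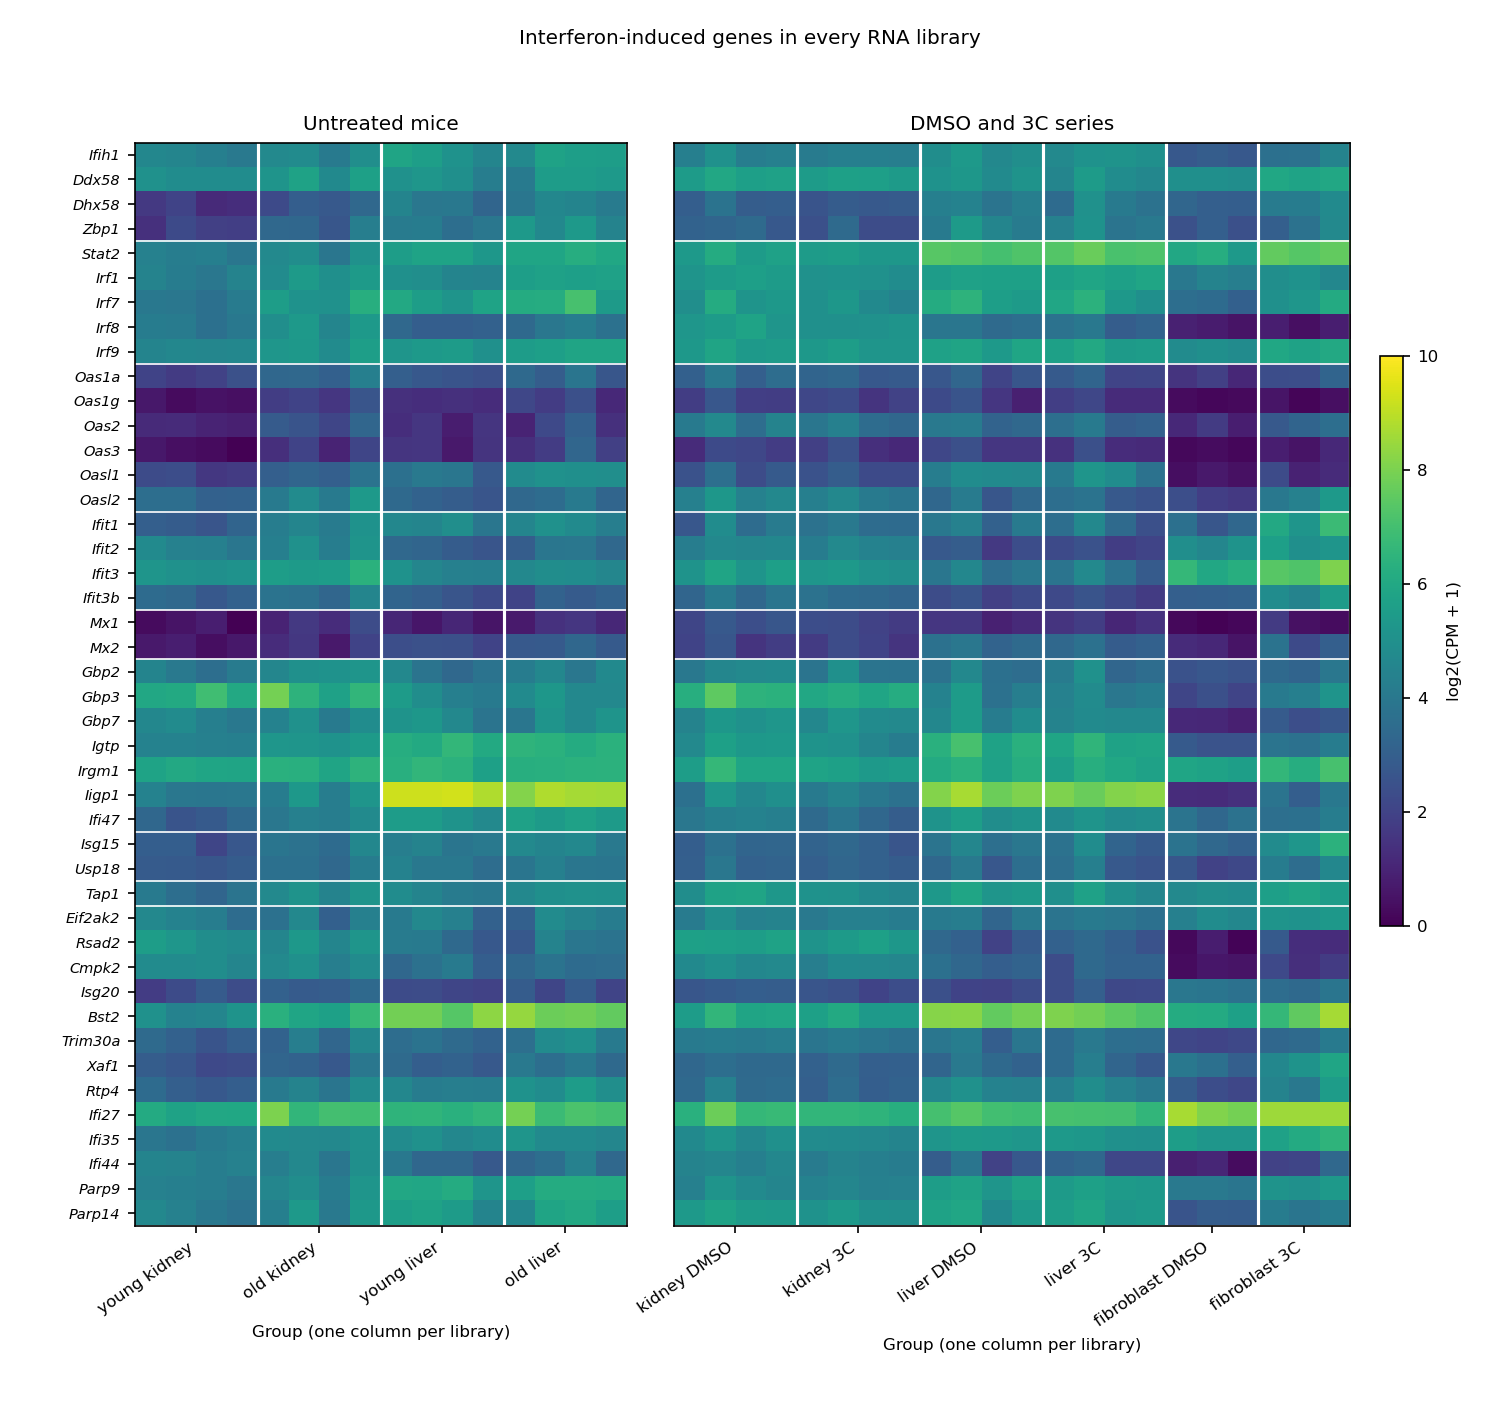
Heat map of the 44 interferon-induced genes (rows, ordered by role) in the 38 RNA-seq libraries (columns, by group), with colour for log2(CPM + 1) from dark (low) to bright (high). The OAS rows brighten from young to old kidney, and most rows brighten from DMSO to 3C fibroblasts.

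To see what ageing did to these genes in the kidney, old kidneys were compared with young ones. In old kidney 19 of the 44 genes rose and 0 fell, with antiviral enzymes of the OAS family, the transcription factors Irf7 and Irf8, Isg15 and the surface protein gene Bst2 among them, while 5.68% of all 14495 genes tested were called higher and 0.407% lower. The estimate was above 0 for 41 of the 44, the median log2 difference was 0.90 against 0.02 for all genes, and in 25 genes the 4 old libraries were all above the 4 young ones in CPM and in 0 all below, as they were in 13.5% and 3.85% of all genes tested. Another 6 genes passed the adjusted p but not the fold: Irf1, Irf9, Ifit3, Gbp2, Igtp and Ifi35. Of the 19, 14 were called under each of the 15 alternative settings. Oas1g, Oas3 and Mx1 had 27, 20 and 25 reads over the 4 young kidneys, and together with Mx2 they passed the filter on low counts only through the old kidneys. Among the other 40 genes 16 were called. In bulk tissue, more RNA per cell and more cells of a type that expresses a gene cannot be told apart.

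All 6 OAS genes rose, though Oas1g and Oas3 passed the filter on low counts only through the old kidneys. They encode oligoadenylate synthetases and their relatives, which answer double-stranded RNA by activating RNase L or by other routes. Oas1g stood at 0.546, 0.229, 0.421 and 0.335 CPM in the 4 young kidneys and at 2.56, 3.06, 2.01 and 5.19 CPM in the 4 old ones, the longest step on the log scale among the 44 genes. Oas1g was below 1 CPM in every young library and above 2 CPM in every old one, and it rose by 3.03 ± 0.40 (log2, SE, adjusted p = 0.00185). Oas2 stood at 1.31, 1.33, 0.983 and 0.839 CPM in young and 6.30, 5.002, 3.22 and 8.74 CPM in old kidneys. The lowest old library held more than the highest young one, and Oas2 rose by 2.34 ± 0.32 (log2, SE, adjusted p = 0.0021). Oas1a stood at 3.01, 2.38, 2.88 and 4.64 CPM in young and 9.06, 9.51, 7.28 and 19.1 CPM in old kidneys, with old kidney replicate 4 far above the others, and rose by 1.75 ± 0.33 (log2, SE, adjusted p = 0.009). Oasl1, which holds back translation of Irf7, stood at 3.82, 4.16, 2.04 and 2.29 CPM in young and 7.14, 8.52, 7.24 and 13.2 CPM in old kidneys. The groups of Oasl1 did not overlap, and the rise was 1.51 ± 0.28 (log2, SE, adjusted p = 0.00759). Oasl2 rose by 1.37 ± 0.28 (log2, SE) and the scarce Oas3 by 2.96 ± 0.66 (log2, SE). Oas1a and Oas1g share 40.9% and 31.3% of their 100-base exon stretches with each other or another gene, so how their reads were divided between them is uncertain.

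Among sensors, Zbp1, which detects nucleic acids in the Z form, and Dhx58, which regulates the RNA sensors Ifih1 and Ddx58, rose. Zbp1 stood at 1.64, 3.70, 2.74 and 2.57 CPM in young and 9.36, 9.09, 5.40 and 18.3 CPM in old kidneys. No old library fell into the young range, and Zbp1 rose by 1.93 ± 0.36 (log2, SE, adjusted p = 0.00883). Dhx58 rose by 1.66 ± 0.33 (log2, SE). The sensors it works with did not pass the test, with log2 differences of 0.45 for Ddx58 and 0.25 for Ifih1.

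Of the 5 signal carriers and transcription factors, Irf7 and Irf8 rose. Irf7 drives type I interferon genes and is induced by interferon itself. Its level was 15.1, 14.8, 11.9 and 17.1 CPM in young and 46.2, 33.2, 32.2 and 76.1 CPM in old kidneys. Old kidney replicate 4 was highest, the lowest old library was well above the highest young one, and Irf7 rose by 1.63 ± 0.26 (log2, SE, adjusted p = 0.00422). Irf8, a transcription factor of myeloid and B cells, stood at 17.3, 17.0, 11.9 and 14.9 CPM in young and 29.9, 40.3, 22.7 and 40.1 CPM in old kidneys, with no overlap, and rose by 1.08 ± 0.17 (log2, SE, adjusted p = 0.00441). Irf8 fell under the fold threshold without young kidney replicate 3 (0.96) or old kidney replicate 4. Stat2, the partner of Irf9, did not pass, with a log2 difference of 0.46.

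The ISG15 system and the IFIT and MX families gave further calls. Isg15, a ubiquitin-like protein attached to other proteins, stood at 6.88, 6.86, 3.30 and 5.65 CPM in young and 13.8, 12.5, 10.4 and 24.0 CPM in old kidneys. The groups did not overlap, and Isg15 rose by 1.38 ± 0.29 (log2, SE, adjusted p = 0.0143). Usp18, the protease that removes Isg15 and restrains the receptor, rose by 1.02 ± 0.19 (log2, SE). Ifit1, which binds foreign RNA, stood at 7.21, 6.49, 5.27 and 8.28 CPM in young and 17.9, 22.7, 17.0 and 33.6 CPM in old kidneys. The old range began at 17.0 CPM, above the young maximum, and Ifit1 rose by 1.70 ± 0.23 (log2, SE, adjusted p = 0.00193). Its relatives Ifit2, Ifit3 and Ifit3b had log2 differences of 0.33, 0.67 and 0.74 and were not called. Mx1, a gene of the dynamin-like GTPase family, rose by 2.54 ± 0.72 (log2, SE) from at most 0.773 CPM in young kidneys. It passed the filter on low counts only through the old kidneys. Neither Mx1 nor Oas3 is among the 14 genes called under each setting.

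Of the 7 GBP and IRG GTPases, which attack the vacuoles of intracellular pathogens, only Ifi47 was called. Ifi47 stood at 9.13, 5.12, 6.11 and 9.79 CPM in young and 14.7, 19.7, 17.6 and 26.5 CPM in old kidneys, without overlap, and rose by 1.34 ± 0.25 (log2, SE, adjusted p = 0.00838). Igtp had the smallest p of all 44 genes, at 20.5, 20.3, 19.5 and 19.0 CPM in young and 36.7, 36.6, 33.5 and 42.6 CPM in old kidneys. Its libraries were close together within each age, but its log2 difference of 0.88 ± 0.10 stayed under the fold threshold. Gbp2 stood at 21.9, 15.4, 11.4 and 16.7 CPM in young and 23.1, 31.6, 33.0 and 36.2 CPM in old kidneys, a log2 difference of 0.89 ± 0.20 (SE, adjusted p = 0.0184) that also missed the fold. Irgm1 stood at 54.3, 64.8, 57.2 and 57.0 CPM in young and 79.6, 78.8, 55.9 and 88.1 CPM in old kidneys. The Irgm1 groups overlapped through old kidney replicate 3, and its log2 difference was 0.34 ± 0.13 (SE, adjusted p = 0.113).

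Tap1, which carries peptides into the endoplasmic reticulum for display on MHC class I, stood at 16.5, 11.2, 8.50 and 13.4 CPM in young and 25.3, 34.3, 21.3 and 34.7 CPM in old kidneys. The groups did not overlap, and Tap1 rose by 1.17 ± 0.21 (log2, SE, adjusted p = 0.00661). Among the 13 other effectors, Bst2, Rtp4 and Ifi27 rose. Bst2, a membrane protein that tethers budding virus, stood at 32.3, 20.5, 22.8 and 34.1 CPM in young and 79.5, 58.1, 49.98 and 102 CPM in old kidneys. Its lowest old library lay above its highest young one, and Bst2 rose by 1.36 ± 0.24 (log2, SE, adjusted p = 0.00716). Rtp4 stood at 10.3, 7.13, 5.83 and 6.93 CPM in young and 15.8, 21.5, 13.8 and 27.5 CPM in old kidneys and rose by 1.34 ± 0.23 (log2, SE, adjusted p = 0.00526). Ifi27 rose by 1.30 ± 0.30 (log2, SE). The estimates below 0 were those of Rsad2 (-0.24), Eif2ak2 (-0.25) and Cmpk2 (-0.08), with groups that overlapped.

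**Figure D2:**
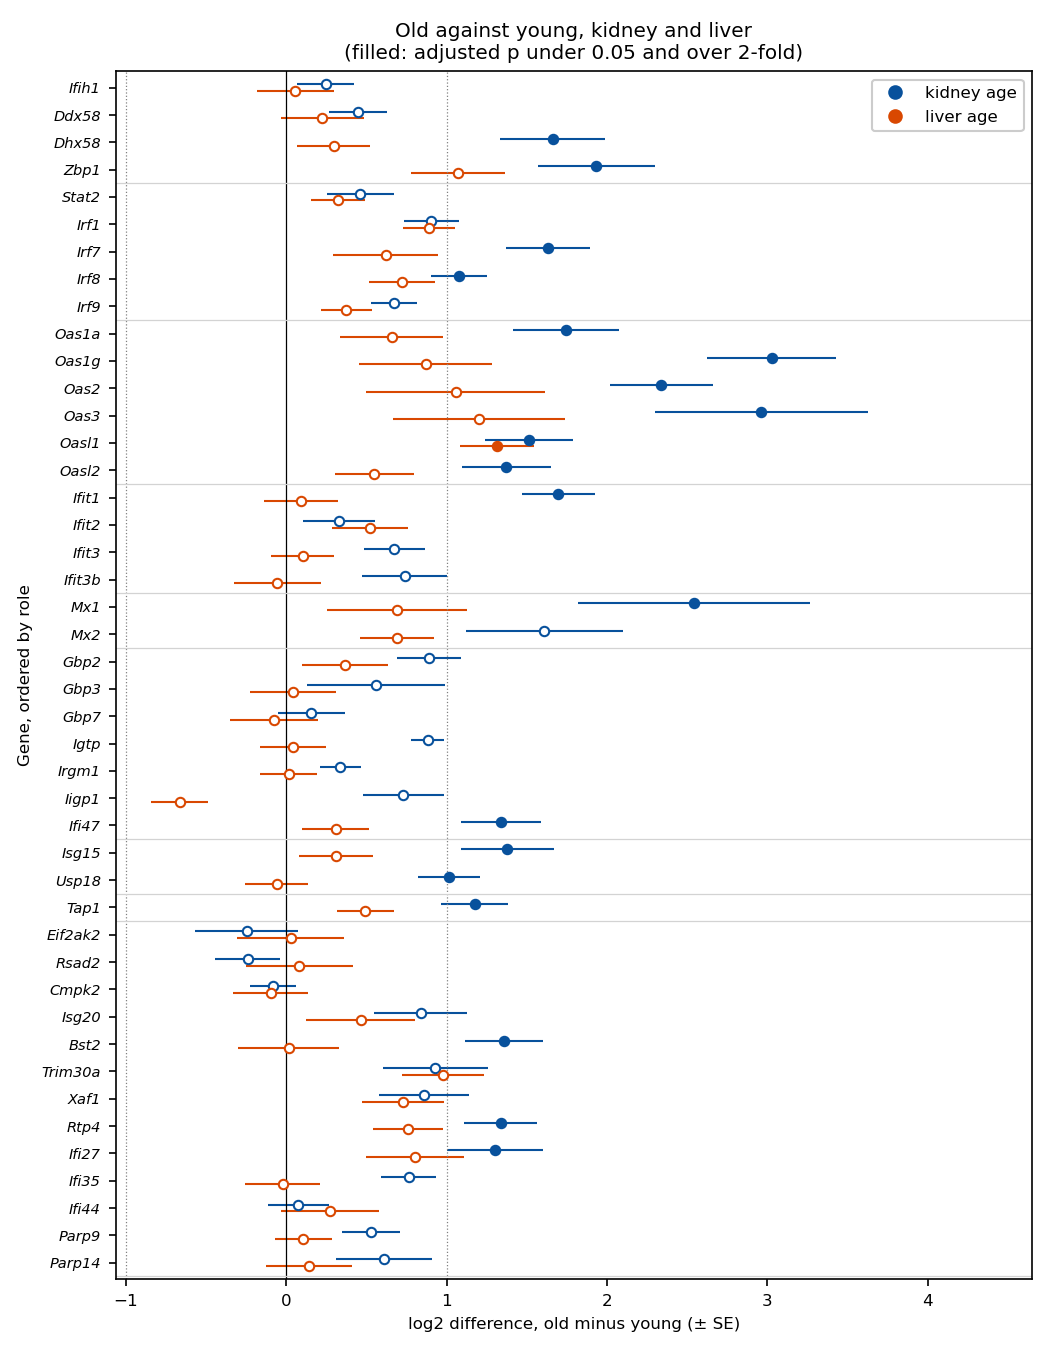
Log2 difference between old and young mice (x axis, with SE bars) for each of the 44 genes (y axis, by role), for kidney (blue) and liver (orange), with filled points where the gene was called. In kidney 19 points are filled, in liver only that of Oasl1.

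Markers of macrophages, T cells and B and plasma cells rose in the same old kidneys. Of the whole marker list, 23 of 42 tested genes were called higher and 0 lower, among them 8 of 8 macrophage, 7 of 8 T cell and 6 of 6 B and plasma cell genes, with 0 of 5 kidney genes. Of the 4 plasmacytoid dendritic cell genes tested 0 were called and 3 had estimates below 0, and the 1 NK cell gene tested was not called. Macrophage markers summed to 154.7 to 181.7 CPM in young kidneys and 711.3 to 1617 CPM in old ones. T cell markers summed to 6.03 to 9.02 CPM in young and 29.3 to 45.1 CPM in old kidneys, and B and plasma cell markers to 5.62 to 11.02 CPM in young and 374.6 to 558.7 CPM in old kidneys. Old kidney replicate 4, which held the highest level of 33 of the 44 genes among old kidneys, also held the highest sum of macrophage markers. Its sum of T cell markers was the highest of the old kidneys too, and its sum of B and plasma cell markers the lowest. The part of these cells in the rise of the 44 genes was not tested.

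**Figure D3:**
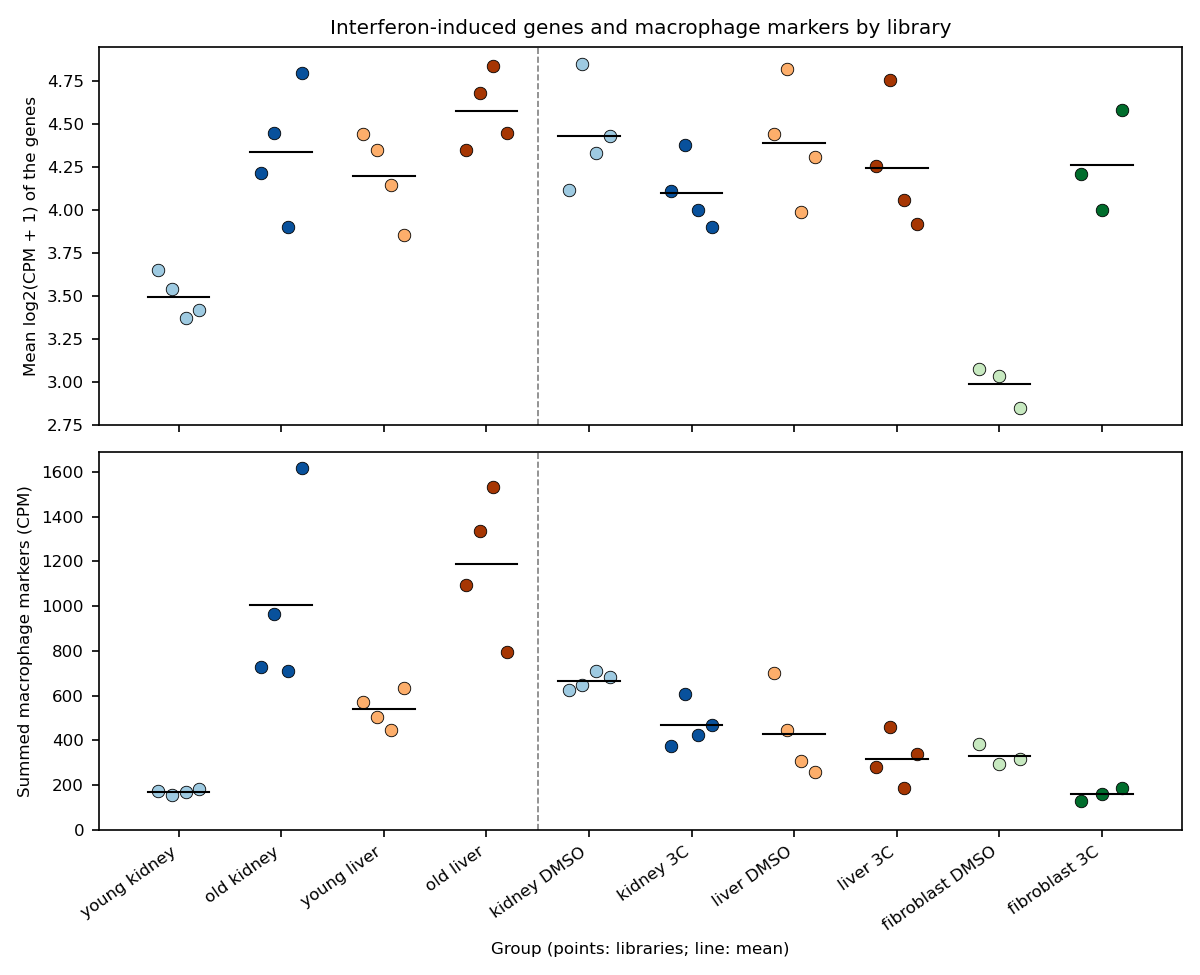
Mean log2(CPM + 1) over the 44 genes (upper panel) and summed CPM of 8 macrophage markers (lower panel) in each library (points), with a line at the mean of each group. Both are higher in old than in young kidney, while in fibroblasts the genes are higher with 3C and the macrophage sum is lower, 127 to 186.7 CPM against 294.8 to 382.6 with DMSO.

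The same question in liver gave far fewer calls. In old liver 1 of the 44 genes, Oasl1, rose and 0 fell, while 1.69% of all 12537 genes tested were called higher and 0.439% lower. The estimate was above 0 for 38 genes with a median of 0.31, and 14 reached an unadjusted p under 0.05, as did 1846 of all genes. In 9 genes every old liver lay above every young one in CPM and in 1 below, as in 6.72% and 2.46% of all genes tested. Oasl1 stood at 11.96, 15.3, 14.1 and 5.99 CPM in young and 27.6, 32.5, 30.7 and 29.8 CPM in old livers. The old livers were close together and above every young one, and Oasl1 rose by 1.31 ± 0.23 (log2, SE, adjusted p = 0.0177). Leaving out young liver replicate 1 or old liver replicate 3 took its adjusted p past the threshold (up to 0.0576), and a second gene was called without old liver replicate 1 (Trim30a), without old liver replicate 4 or with DESeq2 (Zbp1).

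Irf1, a transcription factor for genes of type II interferon, stood at 31.7, 29.8, 21.7 and 21.1 CPM in young and 47.3, 51.2, 48.5 and 52.2 CPM in old livers. Its groups did not overlap, and its log2 difference of 0.89 ± 0.16 (SE, adjusted p = 0.0203) stayed under the fold threshold. Iigp1, an IRG GTPase, stood at 599, 604, 643 and 446 CPM in young and 284, 443, 399 and 393 CPM in old livers. Each old liver was below each young one, the opposite order to most of the list, with a log2 difference of -0.67 ± 0.18 (SE, adjusted p = 0.08). Trim30a, Zbp1 and Irf8 had log2 differences of 0.98, 1.07 and 0.72 and adjusted p-values of 0.0798, 0.0879 and 0.104. Of the genes called in kidney, Isg15 stood at 18.3, 21.3, 13.6 and 15.5 CPM in young and 24.9, 21.9, 24.1 and 15.5 CPM in old livers, which overlapped. Irf7 stood at 64.6, 46.6, 35.2 and 54.2 CPM in young and 70.8, 71.3, 134 and 43.1 CPM in old livers, with old liver replicate 3 far above the rest. Ifit1 stood at 23.5, 22.3, 29.7 and 14.4 and then 22.1, 32.0, 26.7 and 18.4 CPM, and Bst2 at 236, 231, 163 and 315 and then 340.3, 214, 225 and 194 CPM, both with log2 differences of 0.09 or less. Gbp2 stood at 24.4, 13.3, 9.47 and 13.1 CPM in young and 17.1, 23.9, 14.6 and 25.7 CPM in old livers, and Irgm1 at 78.3, 94.9, 85.1 and 50.7 and 76.0, 77.3, 83.2 and 84.2 CPM. The old and young ranges of both GTPase genes overlapped, with log2 differences of 0.37 and 0.01. In these livers 6 of 34 tested markers were called higher, 2 of 8 macrophage and 4 of 5 B and plasma cell genes.

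The liver effect of age minus its kidney effect was tested next. Of all 15036 genes tested, 1.72% passed the adjusted p, and 2 of the 44 did. Ifit1 differed by -1.56 ± 0.32 (SE, adjusted p = 0.0234), having risen in kidney with a liver estimate near 0. Iigp1 differed by -1.34 ± 0.30 (SE, adjusted p = 0.036), with a kidney estimate of 0.73 and a liver estimate of -0.67, neither of them called. The estimate was below 0 for 37 genes, with a median of -0.505. The next by p were Usp18 (-1.03, adjusted p = 0.0625), Oas1g (-2.11, adjusted p = 0.085), Igtp (-0.80, adjusted p = 0.0961) and Dhx58 (-1.31, adjusted p = 0.109). The count was 0 without young kidney replicate 2 or replicate 3, 7 without old liver replicate 1, 3 without old kidney replicate 3 and 1 without young kidney replicate 4, old kidney replicate 4, any 1 young liver or old liver replicate 2, 3 or 4. It was 6 with DESeq2, where Usp18, Oas1g, Igtp and Dhx58 passed as well. With the replicate number as a block it was 0 (Ifit1 -1.52, adjusted p = 0.109, and Iigp1 -1.29, adjusted p = 0.0834), and the numbers pair the young kidney and young liver libraries that enter this test.

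The levels of the 44 genes also differed between the tissues of young mice. With TMM scaling 32 were called higher in young liver than in young kidney and 0 lower, against 16.9% and 25.7% of all 14057 genes tested. This split depends on the scaling: with library totals alone, which moves the median of all genes from -0.08 to -1.16, 18 were called higher and 5 lower (Gbp3, Rsad2, Ifit2, Cmpk2 and Ifi44), against 1240 and 7802 of all 14057 genes. In CPM, which uses library totals, 20 genes had every young liver above every young kidney and 6 the reverse, against 10.1% and 70.0% of all genes tested. Iigp1 stood at 20.9, 14.5, 14.3 and 14.8 CPM in young kidney against 599, 604, 643 and 446 CPM in young liver, far apart under either scaling. Its log2 difference was 6.23 ± 0.20 (SE, adjusted p = 1.29e-10), or 5.15 with library totals. Bst2 stood at 32.3, 20.5, 22.8 and 34.1 CPM in kidney against 236, 231, 163 and 315 CPM in liver, a log2 difference of 4.21 ± 0.28 (SE, adjusted p = 6.22e-08). The log2 differences of the other named genes were 3.95 for Dhx58, 3.90 for Mx2, 3.56 for Zbp1, 3.38 for Ifi47, 3.04 for Igtp, 2.85 for Irf7, 2.75 for Parp9, 2.54 for Stat2, 2.40 for Usp18 and 1.81 for Irf9, which missed the fold with library totals (0.73). Of the genes followed in every group, Ifit1 had 2.79, Isg15 had 2.67 and Irgm1 had 1.47, a call that was lost with library totals (0.41, adjusted p = 0.052). Gbp2 had 0.96, under the fold, and -0.12 with library totals. Oas1g, Oas3, Mx1 and Mx2 passed the filter on low counts only through the livers, and of the other 40 genes 28 were called. Of the 32, 16 were called under each of 15 alternative settings. Of 8 macrophage markers 7 were called higher in young liver, with a median log2 difference of 3.26, as was the pan-leukocyte marker. Of 4 plasmacytoid dendritic cell markers 0 were called higher and 2 lower. T cell markers gave 1 higher and 1 lower of 6, B and plasma cell markers 2 higher and 1 lower of 3, and the 1 NK cell marker tested was called higher. Macrophage markers summed to 154.7 to 181.7 CPM in young kidney and 443.9 to 632.8 CPM in young liver. Their part in the levels of the 44 genes was not tested.

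**Figure D4:**
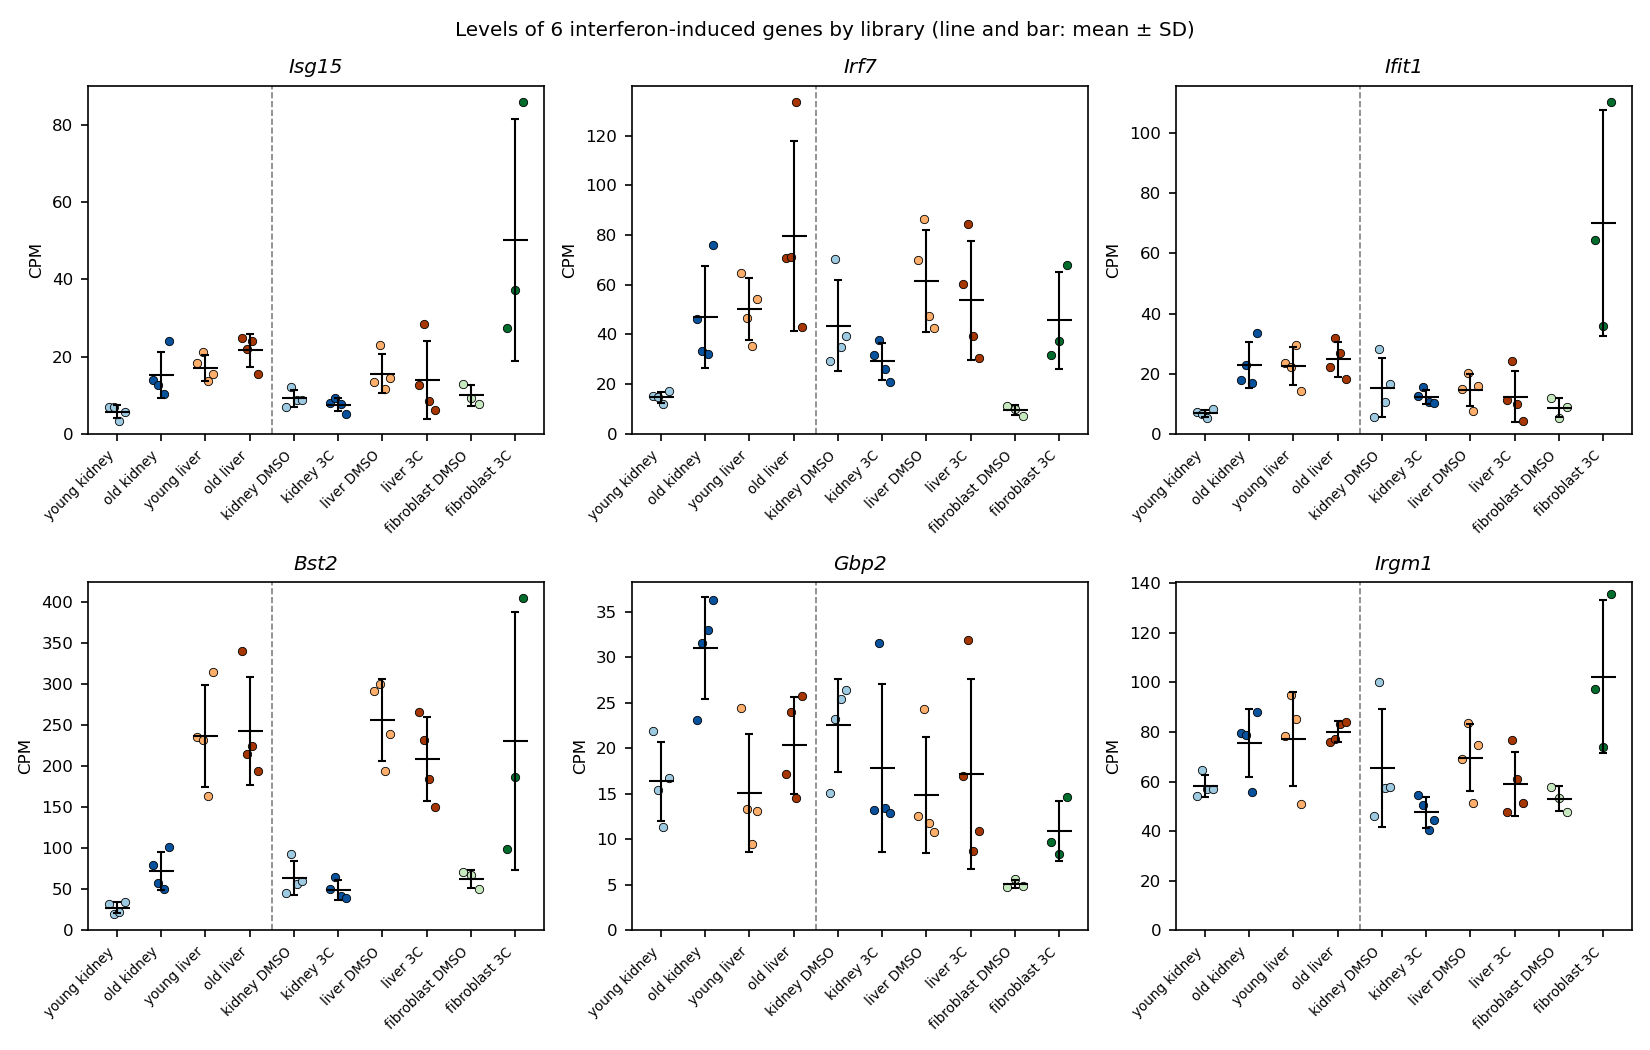
Levels of Isg15, Irf7, Ifit1, Bst2, Gbp2 and Irgm1 in CPM (y axes as labelled) in each library (points) of the 10 RNA groups (x axis). Old kidneys lie above young kidneys except for Irgm1, and 3C fibroblasts lie above DMSO fibroblasts in all 6 panels.

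The 3C experiment gave 27 calls in fibroblasts and 0 in the tissues. In 3C fibroblasts 27 of 41 tested genes rose and 0 fell, while 1.23% of all 13449 genes tested were called higher and 0.632% lower. Oas1g, Oas3 and Mx1 had too few reads to be tested. Irf8, Oasl1, Mx2, Rsad2, Cmpk2 and Ifi44 had a DMSO library under the filter's minimum, and of the other 35 genes 24 were called. The median log2 difference of the 41 was 1.49, and in 36 of the 41 every 3C library lay above every DMSO library in CPM and in 0 below, as in 15.9% and 9.93% of all genes tested. The calls fell to 15 without fibroblast DMSO replicate 3 and were 23 to 28 without any other library. The genes called under each of 13 alternative settings were 15: Stat2, Irf7, Oas2, Oasl2, Ifit1, Ifit3b, Mx2, Gbp3, Gbp7, Igtp, Iigp1, Usp18, Trim30a, Parp9 and Parp14.

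Of the signal carriers, Stat2 stood at 62.4, 74.6 and 41.4 CPM in the 3 DMSO libraries and 193, 163 and 194 CPM in the 3 with 3C. The groups were far apart, and Stat2 rose by 1.57 ± 0.19 (log2, SE, adjusted p = 0.0015). Irf9, its DNA-binding partner, stood at 27.6, 30.7 and 27.3 CPM with DMSO and 61.5, 53.2 and 64.3 CPM with 3C and rose by 1.01 ± 0.12 (log2, SE, adjusted p = 0.00146), just past the fold threshold, which it missed without fibroblast DMSO replicate 1 or 3 or 3C replicate 3. Irf7 stood at 11.2, 10.1 and 7.29 CPM with DMSO and 31.8, 37.2 and 67.8 CPM with 3C. The third 3C library was highest, as it was for 32 of the 44 genes, and Irf7 rose by 2.204 ± 0.29 (log2, SE, adjusted p = 0.00239). Irf1 and Irf8 were not called, with log2 differences of 0.63 and -0.25.

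The GBP and IRG GTPases gave 5 calls of 7 in 3C fibroblasts, against 27 of 41 over the whole list. With age in kidney 1 of the 7 was called, though 3 passed the adjusted p, and this contrast was not tested. Iigp1 stood at 1.38, 1.38 and 1.59 CPM with DMSO and 13.5, 6.92 and 15.1 CPM with 3C. It had the smallest p of the list and rose by 2.98 ± 0.31 (log2, SE, adjusted p = 0.000832). Gbp3 stood at 3.24, 4.39 and 3.12 CPM with DMSO and 16.3, 19.1 and 34.7 CPM with 3C and rose by 2.65 ± 0.30 (log2, SE, adjusted p = 0.00127). Gbp7 stood at 1.21, 1.17 and 0.857 CPM with DMSO and 6.23, 4.31 and 5.39 CPM with 3C and rose by 2.22 ± 0.27 (log2, SE, adjusted p = 0.00159). In all 3 of these genes the groups were far apart. Gbp2 stood at 4.75, 5.64 and 4.90 CPM with DMSO and 9.73, 8.34 and 14.6 CPM with 3C, a rise of 1.04 ± 0.23 (log2, SE, adjusted p = 0.0326) that was lost without fibroblast 3C replicate 3 or any 1 DMSO library, and with the replicate number as a block, where it missed the fold. Irgm1 stood at 58.0, 53.4 and 47.9 CPM with DMSO and 97.4, 74.1 and 136 CPM with 3C, and its log2 difference of 0.90 ± 0.20 (SE, adjusted p = 0.0315) missed the fold.

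Oasl2 stood at 4.36, 2.59 and 2.14 CPM with DMSO and 14.9, 20.2 and 40.7 CPM with 3C and rose by 3.00 ± 0.39 (log2, SE, adjusted p = 0.00253). Ifit1 stood at 11.8, 5.35 and 9.06 CPM with DMSO and 64.3, 35.7 and 110.4 CPM with 3C and rose by 2.96 ± 0.40 (log2, SE, adjusted p = 0.00289). The 3C libraries of Ifit1 were uneven, but all lay above the DMSO ones. Ifit3b stood at 7.21, 7.48 and 7.84 CPM with DMSO and 28.2, 21.3 and 44.4 CPM with 3C and rose by 2.01 ± 0.25 (log2, SE, adjusted p = 0.00184), although it shares 27.4% of its 100-base stretches with another gene, chiefly Ifit3. Isg15 stood at 12.9, 9.36 and 7.66 CPM with DMSO and 27.4, 37.2 and 86.0 CPM with 3C, a rise of 2.29 ± 0.39 (log2, SE, adjusted p = 0.0103) that was lost without fibroblast DMSO replicate 3 (adjusted p = 0.077). Bst2 stood at 70.7, 67.9 and 50.3 CPM with DMSO and 99.2, 187 and 405 CPM with 3C, with the third 3C library far above the first, and rose by 1.84 ± 0.41 (log2, SE, adjusted p = 0.0328). The Bst2 call was lost without any 1 DMSO library or 3C replicate 2, and with the replicate number as a block (adjusted p = 0.0683).

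Parp9 and Parp14, interferon-induced genes of the PARP family, and Trim30a, a ubiquitin ligase of the TRIM family, rose as well. Parp9 stood at 15.3, 15.7 and 13.7 CPM with DMSO and 34.1, 31.6 and 41.1 CPM with 3C and rose by 1.21 ± 0.15 (log2, SE, adjusted p = 0.0016). Parp14 stood at 5.14, 6.68 and 6.43 CPM with DMSO and 17.5, 13.9 and 17.6 CPM with 3C and rose by 1.37 ± 0.17 (log2, SE, adjusted p = 0.00184). Trim30a stood at 3.32, 3.17 and 3.55 CPM with DMSO and 9.26, 9.94 and 16.4 CPM with 3C and rose by 1.78 ± 0.25 (log2, SE, adjusted p = 0.004). The groups overlapped for none of these 3 genes. Those not called include Tap1, Ddx58, Rsad2, Oasl1 and Zbp1, with log2 differences of 0.81, 0.94, 2.98, 2.201 and 1.42. Of 18 markers tested 0 were called higher and 2 lower, Lyz2 and Alb, 6 of 8 T cell markers had no read in 3C fibroblasts, and the fibroblast markers summed to 13932 to 17722 CPM with DMSO and 12907 to 16913 CPM with 3C.

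In the kidney, 3C gave 0 calls among the 44 genes in either direction, as it did among all 14974 genes tested (0.0% higher and 0.0% lower), with 1786 of all genes at an unadjusted p under 0.05. All 44 estimates were below 0, from -0.06 to -0.86 with a median of -0.29, and 12 had an unadjusted p under 0.05. DESeq2 also called 0 of the 44. Ifi47 had the smallest p and stood at 14.5, 19.0, 20.8 and 18.8 CPM with DMSO and 9.87, 13.8, 9.01 and 6.77 CPM with 3C. The 4 libraries with 3C were below the 4 with DMSO, with a log2 difference of -0.86 ± 0.19 (SE, adjusted p = 0.186). The next were Irf1 (-0.42), Irf8 (-0.38), Parp14 (-0.37), Tap1 (-0.58) and Isg20 (-0.53), with adjusted p-values of 0.195 to 0.307. In 7 of the 44 genes every 3C library was below every DMSO library and in 0 above, as in 5.35% and 1.72% of all genes tested. By this measure all genes, too, lay below more often than above. Without kidney 3C replicate 2, 1 gene was called lower, Ifi47. That library was the highest of its group for 32 of the 44 genes, and kidney DMSO replicate 2 the highest of its group for 34. Of the 42 cell markers tested 0 were called by edgeR, 21 had an unadjusted p under 0.05 and 35 had estimates below 0, with a median of -0.52 over the list. Those below 0 held 8 of 8 macrophage, 8 of 8 T cell, 6 of 6 B and plasma cell and 5 of 5 fibroblast genes. The 4 plasmacytoid dendritic cell genes tested all had estimates above 0. Summed macrophage markers were 624.8 to 710.4 CPM with DMSO and 375.6 to 607.6 CPM with 3C, and fibroblast markers 485 to 598.5 CPM with DMSO and 268.1 to 423.3 CPM with 3C, with no overlap in either. T cell markers summed to 27.3 to 63.8 CPM with DMSO and 18.9 to 29.7 CPM with 3C, which overlapped. The part of these cells in the differences of the 44 genes was not tested.

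Of the genes followed in every group, Irf7 stood at 29.4, 70.3, 35.1 and 39.4 CPM with DMSO and 31.8, 37.7, 26.2 and 20.8 CPM with 3C in kidney. Ifit1 stood at 5.56, 28.3, 10.5 and 16.7 CPM with DMSO and 12.6, 15.4, 10.6 and 10.2 CPM with 3C, Isg15 at 6.96, 12.2, 8.65 and 8.80 and 8.05, 9.36, 7.65 and 5.24 CPM, and Bst2 at 45.5, 93.6, 56.0 and 60.3 and 50.1, 65.5, 41.3 and 39.9 CPM. DMSO replicate 2 was the highest DMSO library for each of these 4, and without it the Ifit1 estimate was above 0 (0.20). Gbp2 stood at 15.1, 23.2, 25.4 and 26.3 CPM with DMSO and 13.2, 31.6, 13.5 and 12.9 CPM with 3C, and Irgm1 at 45.9, 100.3, 57.5 and 58.0 and 54.4, 50.7, 40.6 and 44.6 CPM, with overlapping groups.

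In liver 3C likewise gave 0 calls among the 44 genes and among all 13042 genes (0.0% in each direction), with 436 of all genes and 0 of the 44 at an unadjusted p under 0.05. In 0 of the 44 genes did every 3C library lie above or below every DMSO library, as in 0.56% and 1.23% of all genes tested. DESeq2 also called 0 of the 44. The estimate was above 0 for 13 genes, with a median of -0.13. The 6 genes with the smallest p were Ifi47, Bst2, Igtp, Isg20, Mx2 and Tap1, with log2 differences between -0.39 and 0.38. Isg15 stood at 13.4, 22.9, 11.6 and 14.6 CPM with DMSO and 12.6, 28.4, 8.45 and 6.17 CPM with 3C, and Irf7 at 70.0, 86.5, 47.3 and 42.4 and 60.1, 84.6, 39.3 and 30.6 CPM. Ifit1 stood at 14.8, 20.2, 7.58 and 16.1 CPM with DMSO and 11.1, 24.1, 9.92 and 4.37 CPM with 3C, and Bst2 at 292, 301, 194 and 239 and 266, 233, 184 and 151 CPM. The second library of both groups was the highest for Isg15, Irf7 and Ifit1, and for 37 of the 44 genes in the DMSO group and 39 in the 3C group. Gbp2 stood at 12.5, 24.3, 11.8 and 10.8 CPM with DMSO and 17.0, 31.9, 8.75 and 10.9 CPM with 3C, and Irgm1 at 69.2, 83.4, 51.3 and 74.8 and 47.5, 76.6, 60.8 and 51.4 CPM, which overlapped. A difference in 3C effect between liver and kidney was called for 0 of the 44 genes by edgeR, with 3 at an unadjusted p under 0.05, and for 0.0% of 15526 genes. DESeq2 and the fit with the replicate number as a block also called 0 of the 44.

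**Figure D5:**
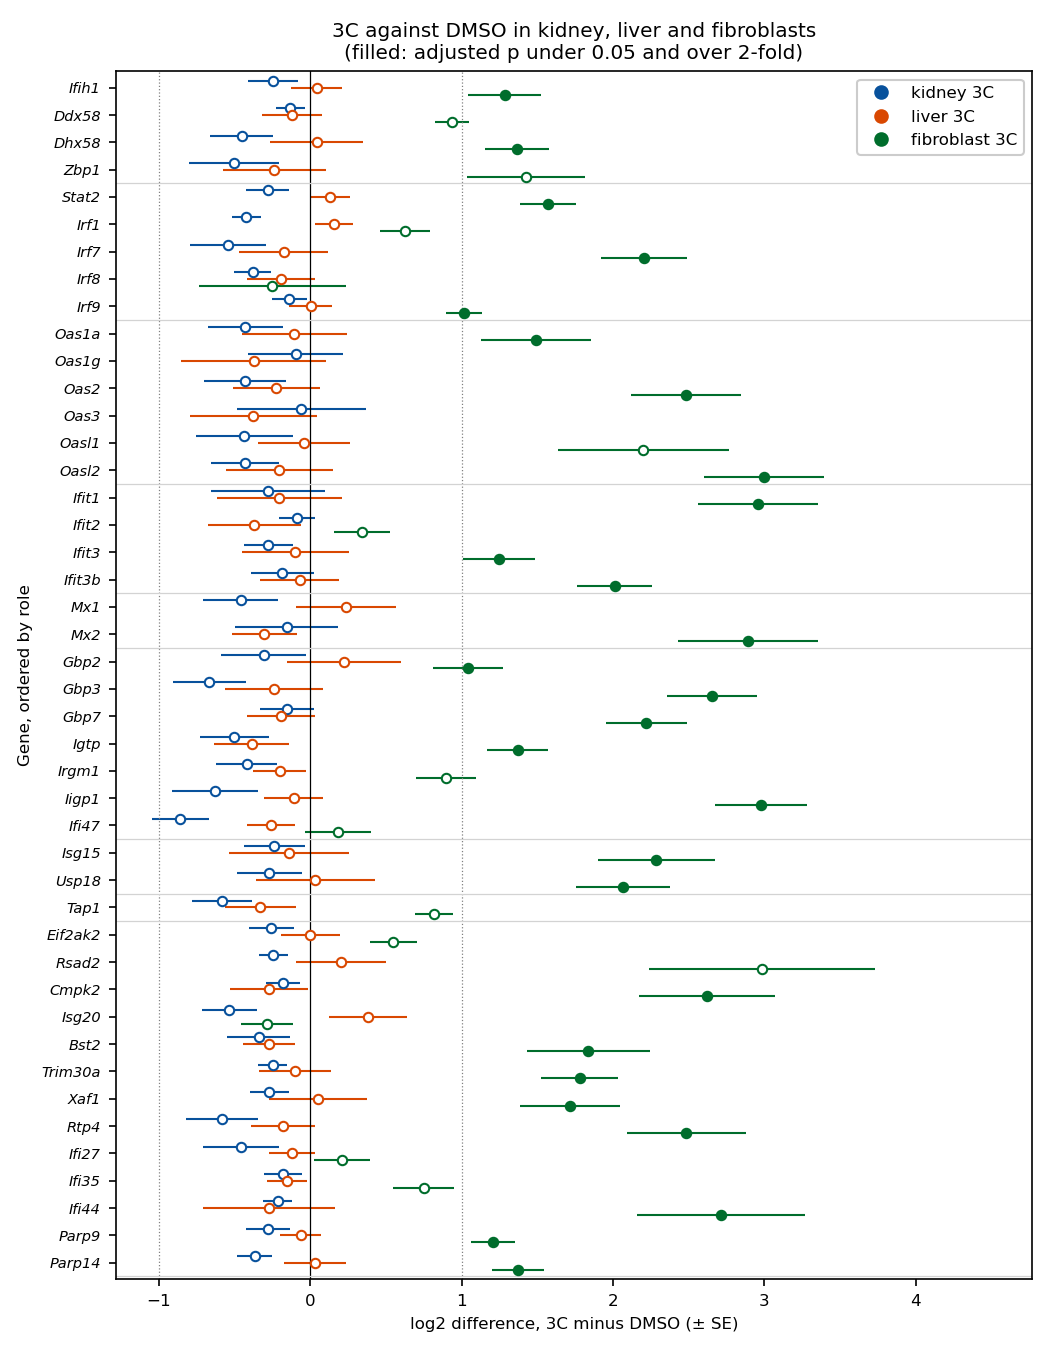
Log2 difference between 3C and DMSO (x axis, with SE bars) for each of the 44 genes (y axis, by role) in kidney (blue), liver (orange) and fibroblasts (green), with filled points where the gene was called. The fibroblast points lie mostly above 1, with 27 filled, while all kidney points lie below 0 and none is filled.

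The difference between fibroblasts and tissue was itself tested, in a comparison added after the data were seen. The 3C effect was larger in fibroblasts than in kidney for 33 of the 44 genes at an adjusted p under 0.05, against 3.88% of all 15848 genes, and all 44 estimates were above 0. The smallest p were those of Parp14 (1.72 ± 0.20, adjusted p = 0.000218), Trim30a (2.01 ± 0.26, adjusted p = 0.000491), Gbp3 (3.29 ± 0.43, adjusted p = 0.000606) and Stat2 (1.84 ± 0.25, adjusted p = 0.000696). Against liver 16 genes passed, where 0.461% of all 14983 genes did, led by Iigp1 (3.07 ± 0.37, adjusted p = 0.0014), Gbp7 (2.39 ± 0.36, adjusted p = 0.00536) and Parp9 (1.26 ± 0.20, adjusted p = 0.0081). The liver count fell to 5 without fibroblast DMSO replicate 3, to 7 without DMSO replicate 1 or 3C replicate 3, to 8 without DMSO replicate 2, and to 10 without liver DMSO replicate 2 or liver 3C replicate 4. How 3C was given to mice and to cultures is not described in the sources used here.

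Of the 41 genes tested both for age in kidney and for 3C in fibroblasts, which share no library, 16 were called for age, 27 for 3C and 10 for both, that is 62.5% of the first and 37.0% of the second. Since 65.9% of the 41 were called for 3C, the genes called for age held no larger a share of 3C calls than the whole list. Of all 12515 genes tested in both, 487 were called higher with age, 156 with 3C and 21 in both. The 10 were Dhx58, Irf7, Oas1a, Oas2, Oasl2, Ifit1, Isg15, Usp18, Bst2 and Rtp4. Called for age alone were Zbp1, Irf8, Oasl1, Ifi47, Tap1 and Ifi27.

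The rest of the pathway, 47 further genes, was read from the same fits. None of the 20 interferon ligand genes had enough reads to be tested in any comparison. Over all 4 libraries of a group, Ifng had 1 read in young kidney and 27 in old kidney, 7 in young liver and 10 in old liver. Ifnb1 had 0 reads in young kidney and 2 in old kidney, and no ligand had a read in 3C fibroblasts. Of the 27 receptors, kinases, inhibitors and upstream sensors tested in kidney, 3 rose with age and 0 fell, against 5.68% and 0.407% of all genes. They were the feedback inhibitor Socs3 (log2 difference 2.80 ± 0.45, adjusted p = 0.00434), the endosomal RNA sensor Tlr7 (1.75 ± 0.37, adjusted p = 0.0151) and Tmem173, the adaptor of cytosolic DNA sensing (2.18 ± 0.35, adjusted p = 0.00409). In liver Socs3 was the only one of 23 called (2.66 ± 0.61, adjusted p = 0.0479), where 1.69% of all genes were called higher. With 3C in kidney and liver, 0 of 27 and 0 of 26 were called by edgeR, and 8 and 3 had an unadjusted p under 0.05. Between young liver and young kidney 7 of 26 were called higher and 2 lower with TMM scaling, against 16.9% and 25.7% of all genes. The called genes included the receptor genes Ifnar2 (2.29), Ifnlr1 (-4.22) and Il10rb (-1.54) and the kinase gene Ikbke (2.79), and the other 5, Tyk2, Socs3, Tlr7, Irf3 and Irf5, had differences of 1.24 to 1.91. With library totals 2 were called higher, Ifnar2 and Ikbke, and 7 lower, Ifnlr1 and Il10rb among them.

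Open chromatin at the promoters of the 44 genes was described from the peaks called in each ATAC-seq library, 3 old and 3 young in each tissue. The height used is the highest fold enrichment of a peak summit within 1 kb of a start site, divided by the library's median over promoters. With 3 libraries against 3 the smallest exact p is 0.1, so none is given. A peak stood at the promoter in all 6 libraries for 36 of the 44 genes in kidney (81.8%, against 55.8% of 24534 genes) and for 39 in liver (88.6%, against 49.7%). The genes without a peak in every kidney library were Oas1a, Oas1g, Oas2, Oas3, Mx1, Iigp1, Isg15 and Ifi44, of which Oas1a, Oas1g, Oas2, Oas3, Mx1 and Isg15 were called higher with age in RNA. Over the whole list 19 of 44 were called, and Oas1g, Oas3 and Mx1 passed the RNA filter only through the old kidneys. A link between absent peaks and RNA was not tested.

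Every old kidney lay above every young one for 5 genes, Dhx58, Mx1, Bst2, Trim30a and Rtp4, and below for 7, Ifih1, Ddx58, Ifit2, Ifit3, Gbp7, Parp9 and Parp14, while 12.5% and 15.7% of all 17216 genes did so. Bst2 had scaled heights of 1.13, 0.961 and 0.979 in young kidneys and 1.22, 1.35 and 1.23 in old ones. Rtp4 had 0.58, 0.613 and 0.509 in young and 0.636, 0.86 and 0.904 in old kidneys. Both counts were near these shares, so neither sets the 44 genes apart. Ddx58 had 1.28, 1.16 and 1.15 in young and 0.9, 1.02 and 0.637 in old kidneys. Ifit1, called in RNA, had 0.895, 0.596 and 0.613 in young and 0.783, 0.803 and 0.768 in old kidneys, which overlapped. Oas1a had 0, 0.667 and 0 in young and 0.708, 0.547 and 0.417 in old kidneys, where 0 means that no peak was listed. A peak was thus listed near its start site in 1 young and 3 old kidneys.

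In liver the old libraries all lay above the young ones for 3 genes, Oasl2, Cmpk2 and Ifi27, and below for 3, Zbp1, Mx1 and Eif2ak2, against 6.24% and 8.02% of all 17217 genes. Oasl2 had scaled heights of 0.602, 0.635 and 0.735 in young and 0.882, 0.904 and 0.936 in old livers. Ifi27 had 0.565, 0.642 and 0.876 in young and 1.47, 0.98 and 1 in old livers. Neither gene was called for age in liver RNA. Oasl1, the gene that was, had 2.01, 1.53 and 1.38 in young and 1.23, 1.26 and 1.55 in old livers, which overlapped. Where leaving out 1 library raised these counts by over 1.5 times, the share over all genes rose too. The kidney counts were 9 above and 11 below without ATAC-seq library 2 of the young kidneys, where 17.0% and 21.7% of all genes lay so, and 8 above without library 2 of the old ones, against 18.3% of all genes. The liver counts were 5 above without library 1 of the young livers, against 10.3% of all genes, and 8 above without library 2 of the old ones, against 13.4%. Below, they were 5 to 7 without any 1 of the young livers or library 2 or 3 of the old ones, against 11.5% to 14.1% of all genes.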

How the data were processed

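RNA-seq was made from 38 samples in 10 groups and ATAC-seq from 12 samples in 4 groups. Per the submitters' processing notes and the study's methods, the authors trimmed reads with Trimmomatic 0.39, used HISAT2 2.2.1 for RNA reads (build mm10) and HTSeq 0.12.4 for counts per gene without regard to strand, so a gene and an antisense partner cannot be told apart. The deposited count files hold whole-number read counts per gene, with unassigned reads in rows that were left out of all totals. For ATAC-seq the authors aligned with Bowtie2 2.3.5.1 and called peaks per library with MACS2. The deposited peak files give each peak's fold enrichment, a ratio over background, and the −log10 of its p- and q-values, of which the fold enrichment was used here, and the q-value only in an alternative with a minimum of 5. The authors' own DiffBind comparisons were not used here.

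The genes and lists were chosen with earlier results of these data known. Counts were tested with edgeR 4.0.16 in R 4.3.3 (TMM, filterByExpr with a minimum count of 10, glmQLFit and glmQLFTest), on the whole table, with Benjamini-Hochberg adjustment. A call needed less than 0.05 for the adjusted p and a fold over 2 or under 0.5, interactions at the adjusted p alone. CPM divides by all reads counted to genes and multiplies by 1000000. Named genes are the called ones up to 12 by smallest p, or the 6 with the smallest p where fewer than 6 were called, and in each group Isg15, Irf7, Ifit1, Bst2, Gbp2 and Irgm1. From the pathway lists, called genes are named. One gene of those lists is not reported here and was left out of their counts, and no count of them is given for fibroblasts.

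In simulated counts with 200 changed genes at 4-fold, 172 to 196 were recovered with 4 to 8 false calls. No pair of replicates agreed within sampling noise (smallest chi-square per degree of freedom 8.122 over 54 pairs). Replicate numbers pair young kidney with young liver (correlations of deviations 0.150 to 0.550 in 4 of 4 pairs, a hint from the data), where the block gave 32 calls, as did the fit without it, and kidney 3C with liver 3C (0.115 to 0.235 in 4 of 4). The tests of a liver effect minus a kidney effect use such libraries. Within a tissue or in fibroblasts no comparison had all its same-numbered pairs correlated over 0.1. The comparison of 3C with DMSO in liver came nearest, with 3 of 4 (-0.116 to 0.241). Alternatives were DESeq2 1.42.0, RLE size factors, library totals without a composition factor (added after the data were seen, as were both interactions of fibroblasts with tissue), no filter, a mean of at least 1 CPM, the adjusted p alone, the replicate block and leaving out each library. Exon lengths and overlaps came from GENCODE vM21, in which 24534 of the 24984 gene names were found. Motifs were sought in RefSeq promoters. Total counts of 14.24 to 43.7 × 1000000 set the depth.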

Additional observations from a re-analysis of the deposited data

Results flagged for a closer look

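In 8 groups of 4 libraries, 352 sets of values (44 genes in each) were examined for a single library standing apart by Dixon's ratio, and 30 (8.52%) passed its 95% critical value, where chance passes about 1 in 20. Each is given with its value and the median of the other 3 libraries. Young kidney replicate 1 was highest for Ddx58 (32.3 CPM, others 28.1 CPM) and Iigp1 (20.9 CPM, others 14.5 CPM). Young kidney replicate 3 was highest for Gbp3 (123 CPM, others 64.9 CPM). Young kidney replicate 4 was lowest for Cmpk2 (22.2 CPM, others 27.5 CPM). Old kidney replicate 4 was highest for Ifit3 (82.0 CPM, others 44.9 CPM). Young liver replicate 3 was lowest for Oas3 (0.628 CPM, others 1.90 CPM). Young liver replicate 1 was highest for Rtp4 (24.0 CPM, others 18.1 CPM). Old liver replicate 1 was lowest for Ddx58 (16.1 CPM, others 44.7 CPM) and Parp9 (49.6 CPM, others 69.3 CPM). Old liver replicate 3 was highest for Oas3 (8.78 CPM, others 2.40 CPM) and Mx2 (9.02 CPM, others 6.09 CPM). Old liver replicate 2 was highest for Gbp3 (38.0 CPM, others 24.8 CPM) and Usp18 (19.2 CPM, others 13.8 CPM). Kidney DMSO replicate 2 was highest for Ifih1 (32.3 CPM, others 19.1 CPM), Dhx58 (12.8 CPM, others 6.88 CPM), Oas1g (5.52 CPM, others 2.56 CPM), Gbp3 (185 CPM, others 83.8 CPM), Usp18 (14.7 CPM, others 7.69 CPM), Rtp4 (20.2 CPM, others 9.97 CPM) and Parp14 (53.6 CPM, others 41.0 CPM). Kidney 3C replicate 2 was highest for Zbp1 (9.93 CPM, others 3.96 CPM), Gbp2 (31.6 CPM, others 13.2 CPM) and Xaf1 (9.88 CPM, others 7.32 CPM). Kidney 3C replicate 4 was lowest for Irf1 (27.9 CPM, others 32.5 CPM). Liver DMSO replicate 2 was highest for Gbp2 (24.3 CPM, others 11.8 CPM) and Tap1 (57.9 CPM, others 39.4 CPM). Liver 3C replicate 2 was highest for Oas3 (4.41 CPM, others 1.41 CPM), Igtp (91.4 CPM, others 56.5 CPM), Isg20 (7.06 CPM, others 3.67 CPM) and Trim30a (15.6 CPM, others 11.004 CPM). Kidney DMSO replicate 2 held 7 of the 30. The causes were not tested.

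The liver effect of age minus its kidney effect was called for Ifit1 (-1.56 on the log2 scale) and Iigp1 (-1.34). Both calls were lost with the replicate number as a block (adjusted p = 0.109 and 0.0834 by edgeR), and each gene lost its call in some of the 23 alternatives. The 3C effect differed between fibroblasts and kidney for 33 of the 44 genes, and between fibroblasts and liver for 16. These tests share the fibroblast libraries.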

How the results depend on the processing

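Results for single named genes kept their direction and their side of the threshold in 2264 alternative fits, lost the call in 81, gained one in 29 and changed sign in 33. Counts of genes stayed within 1.5 times in 255 and moved further in 43. The causes of these moves were not tested. Library totals gave 18 genes higher and 5 lower in young liver and turned the Gbp2 difference to -0.12. DESeq2 gave 2 genes for liver age and 6 for age by tissue. The adjusted p alone gave 2 for liver age, and library totals gave 1 for age by tissue. Without scaling by the library median, 3 genes lay below in kidney promoter peaks, against 8.73% of all genes. Within 500 bp of the start site 1 lay below in liver, against 7.57% of all genes.

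Leaving out 1 library in turn gave 14 to 20 genes for kidney age, 0 to 2 for liver age, 0 to 1 lower for 3C in kidney, 15 to 28 for 3C in fibroblasts, 32 to 34 for young tissue, 0 to 7 for age by tissue, 28 to 35 for fibroblasts against kidney and 5 to 22 for fibroblasts against liver. For promoter peaks it gave 5 to 9 above and 8 to 11 below in kidney, and 3 to 8 above and 4 to 7 below in liver. With the replicate number as a block, kidney age gave 16 genes, 3C in fibroblasts 24 and age by tissue 0. Of the same-numbered pairs, 1 of 4 correlated over 0.1 for kidney age, 1 of 4 for liver age, 0 of 4 for 3C in kidney, 3 of 4 for 3C in liver and 1 of 3 for 3C in fibroblasts.

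Besides Gbp2 in young tissue (0.96 with TMM scaling, under the fold), signs changed for differences that were not called. For liver age, Bst2 was -0.0021 with DESeq2 and -0.0122 with the block, from -0.3438 to 0.307 with 1 library left out, Irgm1 was -0.002 with DESeq2, from -0.0695 to 0.0812, and Ifit1 ran from -0.0065 to 0.2716. For 3C in kidney, Ifit1 ran from -0.5581 to 0.1952. For 3C in liver, Isg15 ran from -0.758 to 0.1049, Irf7 from -0.4791 to 0.0379, Ifit1 from -0.7513 to 0.0786 and Gbp2 from -0.2649 to 0.5649. For 3C by tissue, Isg15 was -0.0876 with the block, from -0.5291 to 0.3508, Ifit1 was -0.259 with the block, from -0.4785 to 0.3645, Bst2 ran from -0.1836 to 0.2074 and Irgm1 from -0.0691 to 0.3459.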
